A study of Mus musculus with 12 samples.

Results

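The genes described here are 10 early-response transcription factor genes of the AP-1 and EGR families: *Fos*, *Fosb*, *Fosl1*, *Fosl2*, *Jun*, *Junb*, *Jund*, *Egr1*, *Egr2* and *Egr3*. They are 10 of the 36228 rows of a raw count table of mouse liver RNA. The set was chosen by the counts of *Junb* and *Egr1*, which were higher in IDH2 KO livers than in WT livers, so for that contrast all values are given as a description without a test. Livers came from C57BL/6N mice of 8 to 10 weeks: 3 female and 2 male IDH2 KO mice, which carry a germ-line deletion of *Idh2* in every tissue (Idh2-/-), and 4 female and 3 male WT littermates. No treatment is named for either genotype. Every mouse was anesthetized and bled through the heart before its liver was put in RNAlater, and 1 library of single-end reads of 50 bp was made per mouse, so p-values measure the spread between these mice.

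AP-1 is a dimer of a Fos family protein with a Jun family protein, or of Jun family proteins with each other, that binds DNA through a basic leucine zipper. EGR proteins bind GC-rich sites through zinc fingers. Genes of both families are immediate early genes: growth factors, stress and injury raise their transcription within minutes without new protein synthesis, through kinases that act on factors such as SRF and CREB, and their mRNAs are short lived. In liver they are known for their rise after partial removal of the organ and after stress to hepatocytes.

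Counted reads numbered 15323300 to 25019649 in IDH2 KO libraries and 17055853 to 24084696 in WT libraries, and levels are given as CPM, the counts relative to library size, with library sizes corrected by TMM for differences in composition. *Idh2*, the mitochondrial NADP-dependent isocitrate dehydrogenase, had 1 to 7 reads in IDH2 KO libraries and 967 to 2363 in WT libraries, as labelled. Of the hepatocyte markers, *Alb* had 62851 and 52833 CPM in IDH2 KO males and 150183 to 175938 CPM in IDH2 KO females, against 87287 to 180047 CPM in WT livers. *Tat*, by contrast, was higher in IDH2 KO males (1611 and 1248 CPM) than in IDH2 KO females (289 to 630 CPM), with 572 to 1555 CPM in WT livers. *Cps1*, an abundant liver enzyme of the urea cycle, was listed at 0 in all 12 libraries. IDH2 KO female 3 stood apart, with reads in 8531 genes against 10482 to 12873 in the other 11 libraries and a median correlation of 0.918 with the others against 0.959 to 0.975. Results are given with and without it, and with and without IDH2 KO male 2 and WT male 1.

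Of the 10 genes, 7 had reads and 6 passed the filter on low counts that left 7618 genes for testing: *Fos*, *Fosl2*, *Jun*, *Junb*, *Jund* and *Egr1*. *Fosl1* had 2 reads, both in WT male 2. *Fosb*, *Egr2* and *Egr3* were listed at 0 in all 12 libraries. For counting error only, a count of 0 in the pooled reads would allow each of them 0.0124 RPM. Since *Cps1* and *Idh1*, another abundant liver enzyme, were also listed at 0, these genes are described only as listed at 0. RefSeq gives 3 transcripts for *Fosb*, 10 for *Egr2* and 3 for *Egr3*, 2 for *Jund*, and 1 for each of the other 6 genes. Among all protein-coding genes matched to RefSeq, 49.9% of 9817 genes with 3 or more transcripts had no reads, against 46.9% of 7062 genes with 1 transcript.

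Levels of different genes were compared per kilobase of transcript. In IDH2 KO livers the order was *Egr1* (64.4 ± 67.2 CPM per kb, SD, n = 5), *Junb* (42.8 ± 28.1), *Jun* (14.5 ± 20.5), *Fos* (4.75 ± 6.49), *Jund* (1.85 ± 0.869) and *Fosl2* (0.413 ± 0.254). In WT livers it was *Junb* (8.70 ± 1.98 CPM per kb, SD, n = 7), *Egr1* (2.92 ± 1.98), *Jund* (1.70 ± 0.586), *Jun* (1.62 ± 0.686), *Fos* (0.476 ± 0.969) and *Fosl2* (0.424 ± 0.136). In the IDH2 KO order, *Egr1* and *Junb* were closer to each other than the larger of their SDs, as were *Jun* and *Fos*, and *Fos* and *Jund*, while *Junb* and *Jun* were just farther apart than either SD and *Jund* and *Fosl2* clearly so. In the WT order, *Junb* and *Egr1* were farther apart than either SD, as were *Jun* and *Fos*, and the other neighbours were not. The SDs are the spread between mice. All genes were measured in the same libraries, and the IDH2 KO order did not hold in each of them. In IDH2 KO female 3, *Egr1* (19.96 CPM, transcript of 3036 bp) was below *Junb* (46.6 CPM, 1809 bp). *Fos* had 2.33, 1.88 and 0.222 CPM in IDH2 KO females, and *Jund* 3.00, 1.88 and 1.63 CPM. With the longer transcript (2108 against 1668 bp), *Fos* was below *Jund* per kilobase in each of these females. Whether the WT order held within each library was not examined.

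The promoters of *Fos*, *Jun* and *Junb* are shown because these genes differed most between genotypes among the members with a promoter in the table of sequences used here. On GRCm38, *Fos* has 4 exons on chromosome 12 (85473890 to 85477273, plus strand). *Jun* on chromosome 4 (95049034 to 95052222, minus strand) and *Junb* on chromosome 8 (84974484 to 84978718, minus strand) each have a single exon. The 250 bases before each start, from RefSeq on GRCm38.p6, are chr12:85473640-85473889 on the plus strand for *Fos*, chr4:95052223-95052472 on the minus strand for *Jun* and chr8:84978749-84978998 on the minus strand for *Junb*, and capitals mark the motif matches described after them.
Fos: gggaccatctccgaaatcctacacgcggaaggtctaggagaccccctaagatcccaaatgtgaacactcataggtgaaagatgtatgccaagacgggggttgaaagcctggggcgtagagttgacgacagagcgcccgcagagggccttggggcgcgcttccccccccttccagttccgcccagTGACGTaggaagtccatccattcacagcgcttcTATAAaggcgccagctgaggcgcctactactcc
Jun: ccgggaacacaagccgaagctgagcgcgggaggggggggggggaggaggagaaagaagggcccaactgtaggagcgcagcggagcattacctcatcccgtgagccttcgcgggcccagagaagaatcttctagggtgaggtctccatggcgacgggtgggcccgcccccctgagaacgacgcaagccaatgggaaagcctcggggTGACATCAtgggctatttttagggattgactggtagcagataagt
Junb: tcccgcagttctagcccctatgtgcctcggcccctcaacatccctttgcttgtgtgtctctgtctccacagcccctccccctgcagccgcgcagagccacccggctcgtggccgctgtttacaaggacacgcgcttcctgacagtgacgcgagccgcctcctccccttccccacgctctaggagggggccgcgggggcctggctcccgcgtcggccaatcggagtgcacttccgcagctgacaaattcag

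The *Fos* window held TGACGT, the core of the site that CREB binds, at positions −66 to −61 from the start, and TATAA, the core of a TATA box, at −33 to −29. The *Jun* window held TGACATCA, the variant AP-1 site to which Jun dimers with ATF proteins bind, at −45 to −38. *Junb* had no match to any motif searched, which says only that these letters are absent from its 250 bases. The search covered TGACGT, the consensus AP-1 site TGACTCA, the variant TGACATCA, GCGGGGGCG and GCGTGGGCG (forms of the EGR site) and the CArG box (the site of SRF) on both strands, and TATAA on the plus strand, and no match overlapped another. Of 32851 promoter windows of the same length, 6.47% held TGACGT, 2.93% held TGACATCA, 16.0% held TATAA, 4.46% held TGACTCA, 2.57% held GCGGGGGCG, 0.536% held GCGTGGGCG and 1.47% held a CArG box. GCGGGGGCG occurred in the windows of *Fosb* (−50 to −42) and *Fosl2* (−79 to −71). Those 2 windows are 68.8% and 64.4% GC, against a median of 52.4% over all windows, and the shares given are not matched for GC. All of these are letter matches, and binding was not measured.

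*Egr1*, a zinc finger factor, has 3 exons on chromosome 18 (34859823 to 34864984, plus strand of GRCm38). It had 191 and 543 CPM in IDH2 KO males and 88.9, 136 and 19.96 CPM in IDH2 KO females. In WT livers it lay between 3.62 and 20.9 CPM, with a median of 6.44. All IDH2 KO libraries but IDH2 KO female 3 were above every WT library, and that library lay just under WT female 1, at 20.9 CPM. Its mean was 196 ± 204 CPM (SD, n = 5) in IDH2 KO livers and 8.88 ± 6.01 CPM (SD, n = 7) in WT livers, a log2 fold change of 4.20 (standard error 0.67) in a model with sex and genotype. IDH2 KO male 2 alone held 55.5% of the summed CPM of the IDH2 KO libraries. In bulk RNA such as this, more cells of a type and more RNA per cell cannot be told apart.

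*Junb* encodes a Jun family protein with weaker activating capacity than c-Jun. It had 55.7 and 168 CPM in IDH2 KO males and 56.2, 61.0 and 46.6 CPM in IDH2 KO females. In WT livers it lay between 9.35 and 20.5 CPM, with a median of 16.3. Every IDH2 KO library was above every WT library, and 4 of the 5 IDH2 KO libraries lay close together with IDH2 KO male 2 above them. The means were 77.4 ± 50.7 CPM (SD, n = 5) in IDH2 KO livers and 15.7 ± 3.59 CPM (SD, n = 7) in WT livers, with a log2 fold change of 2.25 (standard error 0.26).

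*Fos*, which encodes the Fos partner that cannot pair with itself, had 12.8 and 32.8 CPM in IDH2 KO males and 2.33, 1.88 and 0.222 CPM in IDH2 KO females. In WT livers it lay between 0 and 5.62 CPM, with a median of 0.325. WT male 1, at 5.62 CPM, was above all IDH2 KO females, and the other 6 WT libraries were at 0.483 CPM or less. The means were 10.01 ± 13.7 CPM (SD, n = 5) in IDH2 KO livers and 1.00 ± 2.04 CPM (SD, n = 7) in WT livers, with a log2 fold change of 3.34 (standard error 0.73). These levels rested on few reads: 1012 in the 5 IDH2 KO libraries together and 126 in the 7 WT libraries, 95 of them in WT male 1.

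*Jun*, which encodes c-Jun, had 47.7 and 159 CPM in IDH2 KO males and 10.7, 8.88 and 5.10 CPM in IDH2 KO females. In WT livers it lay between 3.65 and 9.35 CPM, with a median of 3.97. The IDH2 KO females overlapped the WT males, but each IDH2 KO library was above every WT library of its sex. The means were 46.4 ± 65.5 CPM (SD, n = 5) in IDH2 KO livers and 5.17 ± 2.19 CPM (SD, n = 7) in WT livers, with a log2 fold change of 2.37 (standard error 0.49), and IDH2 KO male 2 held 68.7% of the summed CPM of the IDH2 KO libraries.

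The other 2 genes with enough reads overlapped between genotypes in part. IDH2 KO male 2 was above every WT library for both genes, and IDH2 KO female 3 was below every WT library for *Fosl2*. *Jund*, the Jun family gene that is usually expressed steadily in resting cells, had 3.75 and 5.18 CPM in IDH2 KO males and 3.00, 1.88 and 1.63 CPM in IDH2 KO females, against 1.34 to 4.20 CPM (median 2.61) in WT livers, with a log2 fold change of 0.08 (standard error 0.32). *Fosl2*, which encodes Fra-2, had 2.05 and 4.50 CPM in IDH2 KO males and 2.96, 3.76 and 0.222 CPM in IDH2 KO females, against 1.79 to 3.97 CPM (median 2.41) in WT livers, with a log2 fold change of −0.03 (standard error 0.46).

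**Figure D1:**
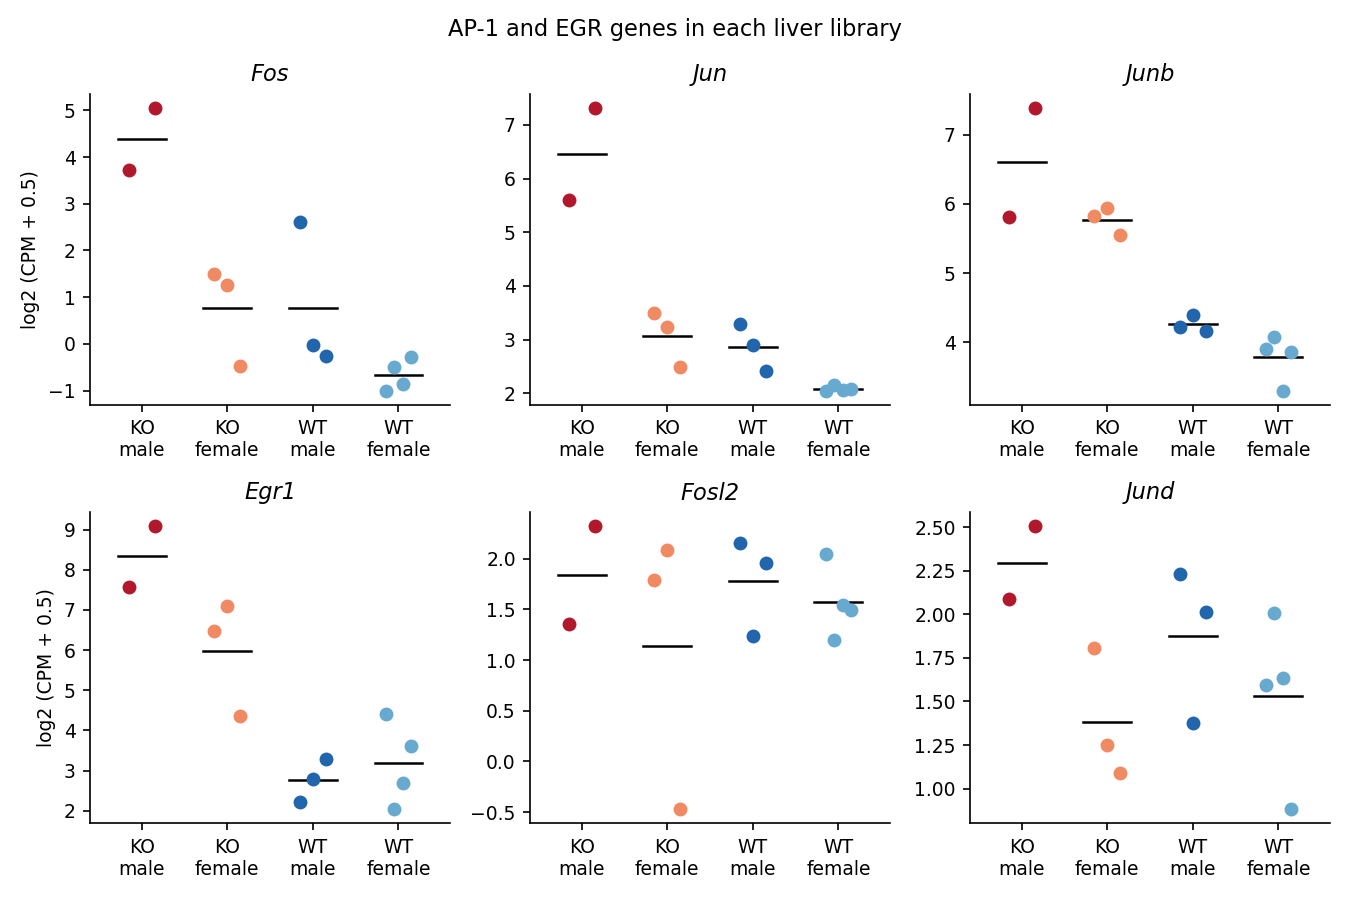
Level of each of the 6 genes past the filter in each liver library, as log2 of CPM plus 0.5 (vertical axis, own range in each panel), by genotype and sex, with a point per library and a line at the group mean. *Junb* is higher in all IDH2 KO libraries than in all WT libraries, while *Fosl2* and *Jund* overlap in part.

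Over all 7618 genes, the quasi-likelihood test of edgeR, adjusted by Benjamini-Hochberg, called 29 genes between IDH2 KO and WT livers, 13 higher and 16 lower, or 0.381% of those tested. *Junb* and *Egr1* were 2 of the 13. Since this contrast chose the members, nothing is read from that count. By size of log2 fold change, *Egr1* ranked 4, *Fos* 7, *Jun* 19 and *Junb* 21 from the top, and *Jund* and *Fosl2* ranked 3163 and 3982. All IDH2 KO libraries were above all WT libraries for 17 genes (0.223%), *Junb* among them, and above all WT libraries of the same sex for 42 genes (0.551%), *Jun* and *Junb* among them.

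Leaving out IDH2 KO male 2 lowered the ratio of mean CPM, IDH2 KO over WT, to 12.3 for *Egr1* (22.0 with all libraries), 3.51 for *Jun* (8.98), 4.29 for *Fos* (9.97) and 3.49 for *Junb* (4.92). On the log2 scale of the model, the fold changes without it were 3.61 for *Egr1*, 1.71 for *Jun*, 3.01 for *Fos* and 1.88 for *Junb*. Leaving out IDH2 KO female 3 raised all of these, to 4.66 for *Egr1*, 2.73 for *Jun*, 3.55 for *Fos* and 2.35 for *Junb*. Without WT male 1 the ratio of mean CPM for *Fos* was 42.8, and its log2 fold change 4.38. With all 3 libraries left out, the log2 fold changes were 3.84 for *Egr1*, 2.00 for *Jun*, 4.24 for *Fos* and 1.94 for *Junb*.

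**Figure D2:**
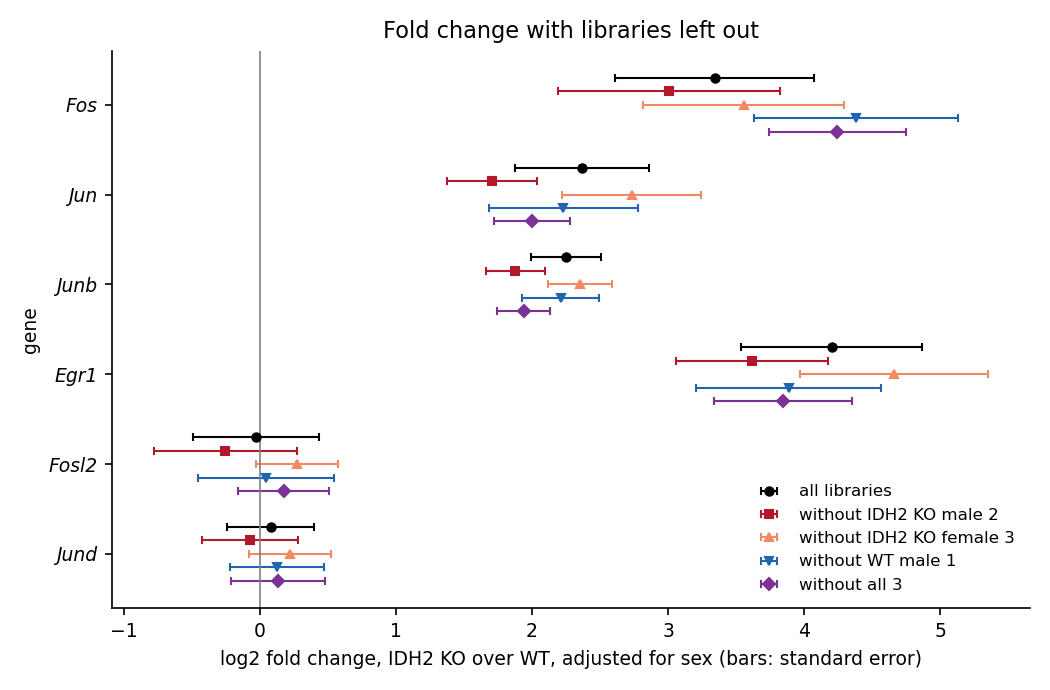
Log2 fold change of IDH2 KO over WT, adjusted for sex (horizontal axis, bars are standard errors), for each gene (vertical axis) with all 12 libraries and with 1 or 3 libraries left out. *Fos*, *Jun*, *Junb* and *Egr1* stay above 0 by more than their standard error in every setting shown, and *Fosl2* and *Jund* lie within a standard error or so of 0.

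Within each sex the log2 fold changes of IDH2 KO over WT were as follows. In males they were 5.79 for *Egr1* (standard error 0.86), 3.87 for *Jun* (0.48), 3.41 for *Fos* (1.08), 2.58 for *Junb* (0.40), 0.45 for *Jund* (0.49) and 0.10 for *Fosl2* (0.75). In females they were 2.95 for *Egr1* (0.66), 1.14 for *Jun* (0.39), 3.26 for *Fos* (1.08), 2.01 for *Junb* (0.34), −0.20 for *Jund* (0.42) and −0.12 for *Fosl2* (0.63). *Jun* and *Egr1* had the widest gap between the sexes. In mean CPM, *Jun* was 14.7 times higher in IDH2 KO males than in WT males and 2.19 times higher in IDH2 KO females than in WT females.

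**Figure D3:**
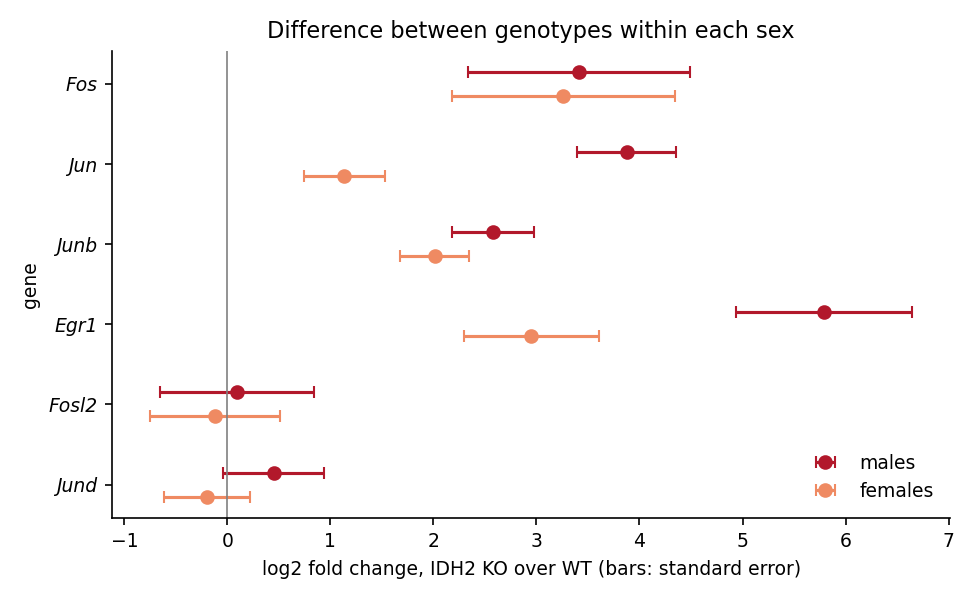
Log2 fold change of IDH2 KO over WT within males and within females (horizontal axis, bars are standard errors) for each gene (vertical axis). *Jun* (3.87 in males and 1.14 in females) and *Egr1* (5.79 and 2.95) lie farthest apart.

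Whether the genotype difference itself differed between sexes was tested as an interaction over all genes. It was 2.74 on the log2 scale for *Jun* (standard error 0.61, adjusted p = 0.530, edgeR) and 2.84 for *Egr1* (1.00, adjusted p = 1.00), so neither passed. It was 0.57 for *Junb* (standard error 0.52), 0.65 for *Jund* (0.65), 0.15 for *Fos* (2.23) and 0.21 for *Fosl2* (0.98). edgeR called 0 genes (0%), with 220 (2.89%) at an unadjusted p under 0.05, *Jun* and *Egr1* among them, while DESeq2 called 10 genes, *Jun* among them with an adjusted p of 0.0250. With 2 IDH2 KO males, one of which held the highest *Jun* and *Egr1* levels of all libraries, the estimate rests on few mice. IDH2 KO males were above all IDH2 KO females for *Fos*, *Jun*, *Jund* and *Egr1*, 4 of the 6 genes, where 13.8% of all tested genes showed this, and for the same number without IDH2 KO female 3, where 23.9% did. The set was chosen by levels in these same IDH2 KO livers, and *Fos* passed the filter mainly through them. Nothing is read from these shares, and the interaction values of the members are a description.

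The contrast of males with females among WT livers was not used to choose the genes. *Fos*, *Jun* and *Junb* had higher levels in each of the 3 WT males than in each of the 4 WT females. This held for 4.95% of all tested genes, and without WT male 1 for 3 of the 6 genes and 9.98% of all. *Fos* had 5.62, 0.483 and 0.333 CPM in WT males and 0, 0.211, 0.049 and 0.325 CPM in WT females. These were 95, 12 and 5 reads in WT males and 0, 6, 1 and 7 reads in WT females, so the lowest male and the highest female were within counting error of each other, and *Fos* passed the filter on low counts mainly through IDH2 KO livers. *Jun* had 9.35, 6.93 and 4.87 CPM in WT males and 3.65, 3.97, 3.69 and 3.71 CPM in WT females. The *Jun* levels of the WT females were nearly equal, and those of the WT males were spread more widely.

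None of the 6 genes passed the test of WT males against WT females, in which edgeR called 57 genes (0.748%). *Fos* and *Jun* were under 0.05 before adjustment, as were 5.83% of all tested genes. The log2 difference, male minus female, was 3.76 for *Fos* (standard error 1.08, adjusted p = 0.259, edgeR) and 1.41 without WT male 1. It was 0.91 for *Jun* (0.39, adjusted p = 0.783) and 0.47 for *Junb* (0.34, adjusted p = 0.999). *Egr1* ran the other way, at −0.67 (0.66, adjusted p = 0.999), with 4.14, 6.44 and 9.27 CPM in WT males and 20.9, 3.62, 6.01 and 11.8 CPM in WT females. *Jund* and *Fosl2* differed by 0.38 (0.41) and 0.27 (0.63).

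The spread between mice was wide for some of these genes within a genotype. Over the 5 IDH2 KO libraries, both sexes together, the SD of log2 of CPM plus 0.5 was 2.18 for *Fos*, 1.99 for *Jun*, 1.73 for *Egr1* and 0.73 for *Junb*, against a median of 0.58 over all tested genes. Without IDH2 KO male 2 it was 1.72 for *Fos*, 1.33 for *Jun*, 1.42 for *Egr1* and 0.16 for *Junb*, against a median of 0.59, so *Junb* lay above the median only with that library. Over the 7 WT libraries it was 1.22 for *Fos*, 0.49 for *Jun*, 0.83 for *Egr1* and 0.35 for *Junb*, against a median of 0.39. In these pooled values the difference between the sexes counts as spread. After the mean of each sex was removed, the SD in IDH2 KO livers was 1.03 for *Fos*, 0.82 for *Jun* and 1.32 for *Egr1*. It was 0.67 for *Junb*, 1.21 for *Fosl2* and 0.35 for *Jund*, against a median of 0.55. In WT livers it was 1.04 for *Fos*, 0.28 for *Jun*, 0.87 for *Egr1* and 0.27 for *Junb*, against a median of 0.38. *Fosl2* had 0.41 and *Jund* 0.46. These differences in spread were not tested. In the dispersion that edgeR fitted over all groups, *Fos* stood at percentile 97.5 and *Egr1* at percentile 91.3, while *Junb* stood at percentile 24.6.

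Whether the genes moved together was tested over the 7 WT libraries alone, for all 15 pairs of the 6 genes. For *Fos*, 5 of the 7 points are counts of 0 to 7 reads, close to the 0.5 CPM added before taking logs, so their order is uncertain. *Fos* also passed the filter on low counts mainly through IDH2 KO livers, so the p-values of its pairs are given as a description. *Fos* and *Jun* were the only pair past the threshold, with Pearson's r of 0.886 (exact permutation p = 0.00258, two-sided, adjusted p = 0.0387) and Spearman's rho of 0.964 (exact permutation p = 0.00278, adjusted p = 0.0417). Without the 2 libraries farthest from the median of *Fos*, r was 0.751, and after the mean of each sex was removed it was 0.863. With each library left out in turn r lay between 0.751 and 0.973, and the adjusted exact permutation p between 0.0208 and 0.427. It stayed past the threshold in 2 of 7 such runs and missed it when WT female 1, WT female 3 or any of the 3 WT males was left out. *Jun* and *Junb* had r of 0.670 (exact permutation p = 0.0921, adjusted p = 0.569) and rho of 0.857 (exact permutation p = 0.0238, adjusted p = 0.179), and r of 0.154 after the sex means were removed. *Egr1* passed the threshold with no other gene. Its r was −0.49 with *Fos*, and 0.36 without the 2 farthest libraries. It was −0.17 with *Junb*, and 0.0373 after the sex means were removed, and −0.48 with *Jun*, which kept its sign in both checks.

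**Figure D4:**
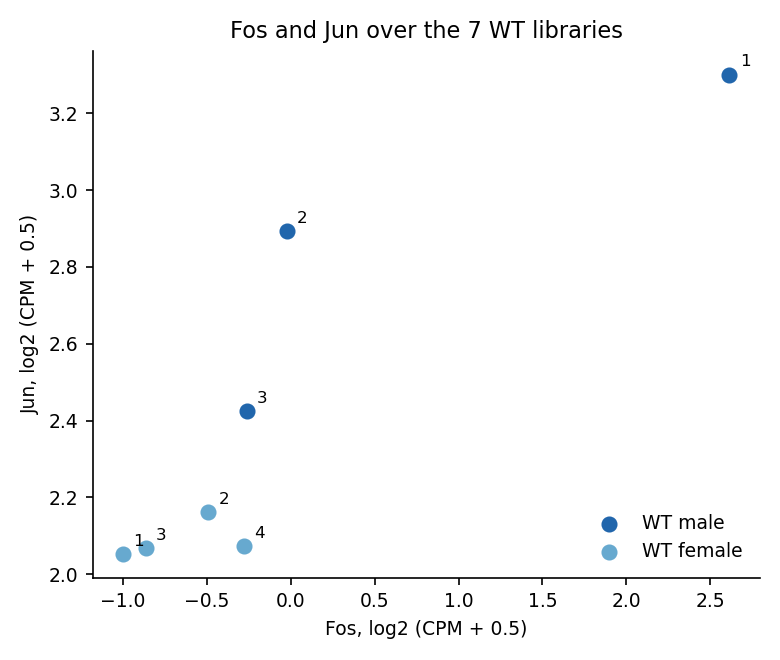
*Jun* against *Fos* in the 7 WT libraries, both as log2 of CPM plus 0.5, with WT males and WT females in separate colours and the replicate number beside each point. WT male 1 is highest on both axes, and the 4 WT females have nearly the same *Jun* level.

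Over all 12 libraries, the genes whose log2 CPM followed a member most closely were ranked among 5868 genes with a mean of at least 1 CPM. These points share the genotype difference and IDH2 KO male 2, so the values are a description. For *Egr1* they were *Zfp36* (r = 0.930), *Gm7265* (0.914), *Junb* (0.897), *9430037G07Rik* (0.871) and *Ier2* (0.865). *Junb* was followed by *9430037G07Rik* (r = 0.928), *Egr1* (0.897), *Ier2* (0.879), *Gm7265* (0.873) and *BC002059* (0.866). For *Fos* they were *Jun* (r = 0.948), *Fnta* (0.908), *LOC108168985* (0.900), *Iqsec3* (0.887) and *Zfp36* (0.865). After the mean of each of the 4 groups was removed, r was 0.768 for *Fos* with *Jun* and 0.739 for *Egr1* with *Zfp36*, but 0.459 for *Egr1* with *Junb* and 0.0075 for *Egr1* with *Ier2*.

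A list of 51 other early-response genes held 36 that passed the filter, and 3 of them rose in IDH2 KO livers and 0 fell, against 0.171% of all genes called higher. The list was written with earlier results of these libraries known and is not independent evidence of its direction. *Ier2*, a nuclear protein of the immediate early class, averaged 74.1 ± 66.1 CPM (SD, n = 5) in IDH2 KO livers and 12.8 ± 2.86 CPM (SD, n = 7) in WT livers (log2 fold change 2.28, standard error 0.38, adjusted p = 0.0112, edgeR), and every IDH2 KO library was above every WT library. *Dusp1*, a phosphatase that switches off MAP kinases, averaged 54.8 ± 43.3 CPM in IDH2 KO livers and 11.98 ± 6.95 CPM in WT livers (1.99, standard error 0.36, adjusted p = 0.0223, edgeR), and IDH2 KO female 2, at 10.4 CPM, lay among the WT libraries. *Zfp36*, which encodes tristetraprolin, a protein that speeds the decay of AU-rich mRNAs, averaged 215 ± 180 CPM in IDH2 KO livers and 43.2 ± 11.5 CPM in WT livers (2.06, standard error 0.41, adjusted p = 0.0468, edgeR), and IDH2 KO female 3, at 39.4 CPM, lay among the WT libraries.

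*Hes1*, a repressor downstream of Notch, came next at an adjusted p of 0.0512 (edgeR) and a log2 fold change of 1.62. Of the 36 tested genes of the list 25 had a positive fold change, with a median of 0.33 against −0.0045 over all genes. The summed level of the list was 312 to 1554 CPM (median 866) in IDH2 KO livers and 363 to 553 CPM (median 466) in WT livers, with IDH2 KO female 3 lowest of all. The calls were few and moved with single libraries: leaving out WT male 3 left 0 called, and leaving out IDH2 KO male 2, IDH2 KO female 1, WT female 1 or WT male 1 left *Ier2* alone. Without IDH2 KO female 3 the 3 called were *Zfp36*, *Trib1* and *Zfp36l2*, and without IDH2 KO male 1 they were *Ier2* and *Hes1*.

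The factors that pair with AP-1 or are related to EGR, 22 genes, held 7 that were tested, and 0 of them passed. *Atf5*, the most abundant of those named, averaged 272 CPM in IDH2 KO livers and 299 CPM in WT livers, *Cebpg* 8.59 and 7.79 CPM, and *Cebpa* 0.339 and 1.06 CPM. Kinases and factors upstream of these genes, 41 in the list and 12 tested, had 0 past the threshold. *Egfr*, the receptor of epidermal growth factor, averaged 39.1 CPM in IDH2 KO livers and 115 CPM in WT livers (log2 fold change −1.59, standard error 0.61, adjusted p = 0.623, edgeR). *Hras* averaged 10.6 and 7.01 CPM, and *Map3k5*, a stress kinase, 5.73 and 8.43 CPM. *Srf* and *Mapk14* were among 14 genes of this list at 0 in all libraries.

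Known target genes of AP-1 or EGR factors, 36 listed and 18 tested, also had 0 past the threshold, with 14 positive fold changes and a median of 0.16. *Ccl2*, a monocyte chemokine, averaged 0.682 CPM in IDH2 KO livers and 0.359 CPM in WT livers, and *Pck1*, the gluconeogenic enzyme, 1405 and 1930 CPM. Among clock genes, whose levels cycle over the day, 7 of 18 were tested and 0 passed. *Nr1d1* averaged 165 CPM in IDH2 KO livers and 127 CPM in WT livers (log2 fold change 0.31, adjusted p = 0.875, edgeR), and *Arntl* 2.85 and 2.26 CPM. *Per1*, itself an early-response gene, was listed at 0.

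Markers of other cells were summed beside these results. Erythroid markers, 5 of 5 tested, summed to 33.5 to 305 CPM (median 215) in IDH2 KO livers and 16.5 to 140 CPM (median 23.3) in WT livers, with 0 past the threshold and 4 higher at an unadjusted p under 0.05 in edgeR. With no filter on low counts, 4 of the 5 were called higher (*Hbb-bt*, *Hbb-bs*, *Hba-a1* and *Hba-a2*), and without WT female 4 *Hbb-bs* was. The remaining marker, *Alas2*, ran the other way, averaging 1.93 CPM in IDH2 KO livers and 3.61 CPM in WT livers (log2 fold change −0.92, standard error 0.46, adjusted p = 0.756, edgeR). *Hbb-bs*, a beta globin, averaged 140 and 27.4 CPM (adjusted p = 0.358, edgeR). Kupffer cell markers, 6 of 7 tested and 0 called, summed to 194 to 562 CPM (median 300) in IDH2 KO livers and 119 to 484 CPM (median 195) in WT livers. Markers of T, NK and B cells, 6 of 7 tested and 0 called, summed to 5.64 to 33.8 CPM (median 21.5) in IDH2 KO livers and 10.7 to 120 CPM (median 15.6) in WT livers, with *Cd3e* at 0. Of the 6 tested 5 had a positive fold change, and *Ighm* made 117 CPM of the highest WT sum. Neutrophil markers, 1 of 5 tested and 0 called, summed to 0.223 and 0.0518 CPM in IDH2 KO males, below every WT library, and to 2.37, 2.33 and 3.03 CPM in IDH2 KO females, above every WT library, against 0.257 to 0.843 CPM (median 0.556) in WT livers, with *S100a9* and *Ly6g* at 0. These sums rest on few reads. *Csf3r*, the gene tested, had 3 and 1 reads in IDH2 KO males, 15 to 18 in IDH2 KO females and 2 to 15 in WT libraries. Its level in IDH2 KO male 1 (0.134 CPM) was above WT female 1 (0.103 CPM). Hepatocyte markers, 5 of 6 tested and 0 called, summed to 89252 and 82606 CPM in IDH2 KO males, the libraries with the highest *Egr1*, *Jun* and *Fos*, and to 176569 to 222608 CPM in IDH2 KO females, against 116815 to 216516 CPM in WT livers. *Alb* made most of each sum, and not all markers followed it. *Tat* was higher in IDH2 KO males (1611 and 1248 CPM) than in IDH2 KO females (289 to 630 CPM), with 572 to 1555 CPM in WT livers. *Cyp2e1* had 10644 to 15822 CPM in IDH2 KO livers and 10825 to 16842 CPM in WT livers. *Ttr* had 4718 and 3021 CPM in IDH2 KO males, 4379 to 9822 CPM in IDH2 KO females and 4881 to 7335 CPM in WT livers. Endothelial, stellate and cholangiocyte markers had 0 genes called, and their sums overlapped between genotypes. The part of these cells in the levels of the AP-1 and EGR genes was not tested.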

How the data were processed

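Liver RNA of 12 mice was sequenced, 1 library per mouse. The authors deposited whole-number counts of reads per gene, used here, and a filtered subset of that table. FastQC and GRCm38.p5 are named in their processing notes, while the aligner, the counter and the rule for multiply matching reads are not given in the sources consulted. The study normalised its counts to log2 RPM and selected genes by the p-value of Welch's test together with a cut on fold change. That selection was not used here.

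After TMM scaling and filtering by filterByExpr (at least 10 reads, total at least 15), the quasi-likelihood test of edgeR 4.0.16 in R 4.3.3 was run on sex and genotype, or on 4 group means for contrasts within sex and the interaction. Standard errors of edgeR fits are the absolute log2 fold change divided by the square root of the F of that test. They are approximate, and those of different contrasts need not combine. P-values were adjusted by Benjamini-Hochberg over all 7618 genes at 0.05. Members in IDH2 KO against WT carry no p, since that contrast chose them. Members and lists were chosen with earlier results of these data known. Named genes were the 10 members, *Idh2*, each list's called genes or else its 3 with the smallest unadjusted p, and the 5 genes of closest pattern to *Egr1*, *Junb* and *Fos*. Some genes this rule takes are not reported here. Others named (*Hes1*, *Trib1*, *Zfp36l2* and genes listed at 0) were chosen after their values were seen. Correlations used Python 3.11.15 with numpy 2.4.6 and scipy 1.17.1, on log2 of CPM plus 0.5, with exact permutation tests. Coordinates are from GENCODE M21 on GRCm38, and promoters from RefSeq on GRCm38.p6. The fits were tested on simulated data. Alternatives were other scalings, filters, DESeq2 1.42.0, limma 3.58.1, no sex term, a replicate block and libraries left out.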

Additional observations from a re-analysis of the deposited data

Results flagged for a closer look

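Among 18 gene and group combinations of 4 or more libraries examined for a library far from the rest, 2 stood out. A rate by chance of about 1 in 20 was a setting and was not computed for these data. The combinations share libraries, so nothing is read from the number of flags. *Fos* in WT livers had its highest value in WT male 1, whose gap to the next library was 0.730 of the range of the 7 libraries on log2 of CPM plus 0.5. *Junb* in IDH2 KO livers had its highest value in IDH2 KO male 2, with a gap of 0.790 of the range of the 5 libraries.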

How the results depend on the processing

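The log2 fold changes of IDH2 KO over WT stayed positive under all 23 alternatives for *Fos* (1.95 to 4.38), *Jun* (1.71 to 3.17), *Junb* (1.88 to 2.40) and *Egr1* (3.61 to 4.66), as a description. The count of genes called in that contrast, 29, was 205 with no filter, 63 with DESeq2 and 10 with the replicate block, and 19 to 33 with each library left out. For WT males against WT females, 57 became 251 with no filter, 120 with DESeq2 and 97 without IDH2 KO male 2, IDH2 KO female 3 and WT male 1, and 33 to 119 with each library left out. The interaction had 0 calls, against 1 with no scaling, 48 with no filter, 10 with DESeq2, 2 without those 3 libraries and 0 to 2 with each library left out. With no filter, *Jun* (adjusted p = 0.000967) and *Egr1* (adjusted p = 4.71e-05) passed in edgeR. That fit held 17289 genes, and standard errors of members were smaller in it. For the *Fos* fold change of IDH2 KO over WT it was 0.40, against 0.73 with the filter. The interaction also uses the IDH2 KO levels that chose the set, so these values are a description. Other early-response genes called higher, 3, were 1 with no scaling, 5 with no filter, 1 with limma at either pseudocount, 0 with the replicate block and 0 to 3 with each library left out. Pairs of genes past the threshold in WT livers, 1, were 0 to 1 with a WT library left out. The interaction changed sign for *Fos* (−0.64 to 2.49 with each library left out), *Fosl2* (−0.41 to 0.73, and −0.74 without those 3) and *Junb* (−0.39 to 1.16, and −0.56 without those 3). The cause was not tested. The replicate block pairs mice that share only a number: deviations of equal numbers correlated by −0.18 to 0.08, and *Egr1* was not among its 10 calls. Leaving out the 3 libraries at once, the repeated count of the early-response list, and the spread without IDH2 KO male 2 were chosen after seeing the data. Depth limits *Fos* in WT livers, with 0 to 7 reads in 5 of the 7 libraries, and *Fosl1*, with 2 reads in all.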
